A study of Mus musculus with 15 samples.

Results

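The genes described here are the ligands and receptors of the tumour necrosis factor (TNF) superfamily, as measured in tarsal joints of mice with collagen-induced arthritis. They were chosen by name: every gene whose array symbol begins with Tnfsf or Tnfrsf and a number, together with Tnf, Lta, Ltb, Ltbr, Fas, Fasl, Cd27, Cd40, Cd40lg, Cd70, Ngfr and Eda2r, and without the 3 genes of the RANKL, RANK and osteoprotegerin axis. This gave 38 of the 19938 genes analysed, 14 ligands and 24 receptors, each with 1 probe set on an Affymetrix Mouse Gene 1.0 ST array. Tnfsf12, Tnfsf13 and Tnfsfm13 were not analysed here, since their probe set names all 3.

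Arthritis had been induced in male DBA/1JBom mice with chicken collagen type II in complete Freund's adjuvant and a boost on day 21 in incomplete adjuvant, and 1 tarsal joint was measured per array with none pooled. Joints with a clinical score of 3 were taken on day 0 to 3, during week 1 to 2 and during week 3 to 4 after onset, and decline joints had held a score of 3 for some weeks before losing at least 1 point. Each of these phases has 3 joints, and so do the controls, which the labels call non-induced; whether the controls had received adjuvant is not settled in the sources. Animal 57 of day 0 to 3 is marked in the labels as having failed quality control, so that day 0 to 3 is 2 joints below. RNA came from the whole tarsus with its remaining soft tissue, after removal of skin, visible muscle and fur, so that fewer cells of a type and less RNA per cell cannot be told apart. Values are log2 intensities, and a difference of 1 is 2-fold. A gene is called when its adjusted p (limma, Benjamini-Hochberg over all genes) is under 0.05.

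Ligands of the TNF superfamily are mostly made as trimers on the cell surface, from which some are cut free, and they act by clustering their receptors. Receptors with a death domain can recruit caspase-8 and start cell death, receptors without one recruit TRAF adaptors and switch on NF-kB, and decoy-type receptors bind a ligand without passing on a full signal. TNF itself is a target of treatment in human arthritis, and most of the other pairs control the activation and survival of lymphocytes.

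The arrays differed in their range of signal. The SD over genes was 1.60 and 1.53 on the day 0 to 3 arrays, 1.485 to 1.651 in week 1 to 4, 1.28 to 1.59 in decline and 1.22 to 1.46 in controls, with the narrowest range on control 2 and next on animal 10 of decline. Genes with a mean log2 value under 6 were lower in the arthritis phases, whose arrays mostly had a wider range than the controls. Their median change against control was -0.26 at day 0 to 3, -0.28 during week 1 to 2, -0.27 during week 3 to 4 and -0.14 in decline (n = 7731 genes), while that of brighter genes was 0.04, 0.015, 0.075 and 0.015. Of the 38 family members, 16 were of the dim kind. Muscle markers were lower on the day 0 to 3 arrays (mean log2 level of 6 genes 8.06 to 8.25) than in controls (10.66 to 11.52), macrophage markers were at 8.08 to 8.53 against 6.98 to 7.75, and the mean level of 6 epidermal markers was 10.62 to 11.64 in decline against 5.69 to 6.61 in week 0 to 2. The part of tissue makeup and of signal range in the results below was not tested unless a value is given.

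Few members of the family were called. At day 0 to 3 only 1 of 38 members was called against control (Cd27, lower), where 7.82% of all genes were called. During week 1 to 2 it was again Cd27 alone, with 10.1% of all genes called, and during week 3 to 4 Cd27 alone, with 1.55%. In decline 0 of 38 were called by limma against control, as were 0.0% of all genes, and 3 members and 2400 genes had an unadjusted p under 0.05. Between decline and week 0 to 2, taken as the mean of the first 2 phases, 1 member was called (Tnfrsf23, lower in decline), with 4.75% of all genes. No member differed from control by 2-fold or more in any of the 4 phases, whereas 7.01% of all genes did at day 0 to 3 and 5.8% during week 1 to 2. The median change of the members was -0.05 at day 0 to 3, -0.105 during week 1 to 2, -0.10 during week 3 to 4 and -0.12 in decline, and that of all genes was -0.12, -0.13, -0.09 and -0.05. At day 0 to 3, 33 of 38 members (86.8%) lay within 0.5 of control, and so did 72.4% of all genes. Over the 5 groups, however, the family was close to the rest of the array: the median range of group means was 0.41 for the members and 0.45 for all genes, and the range reached 2-fold in 3 members (7.9%) and in 10.3% of all genes.

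**Figure D1:**
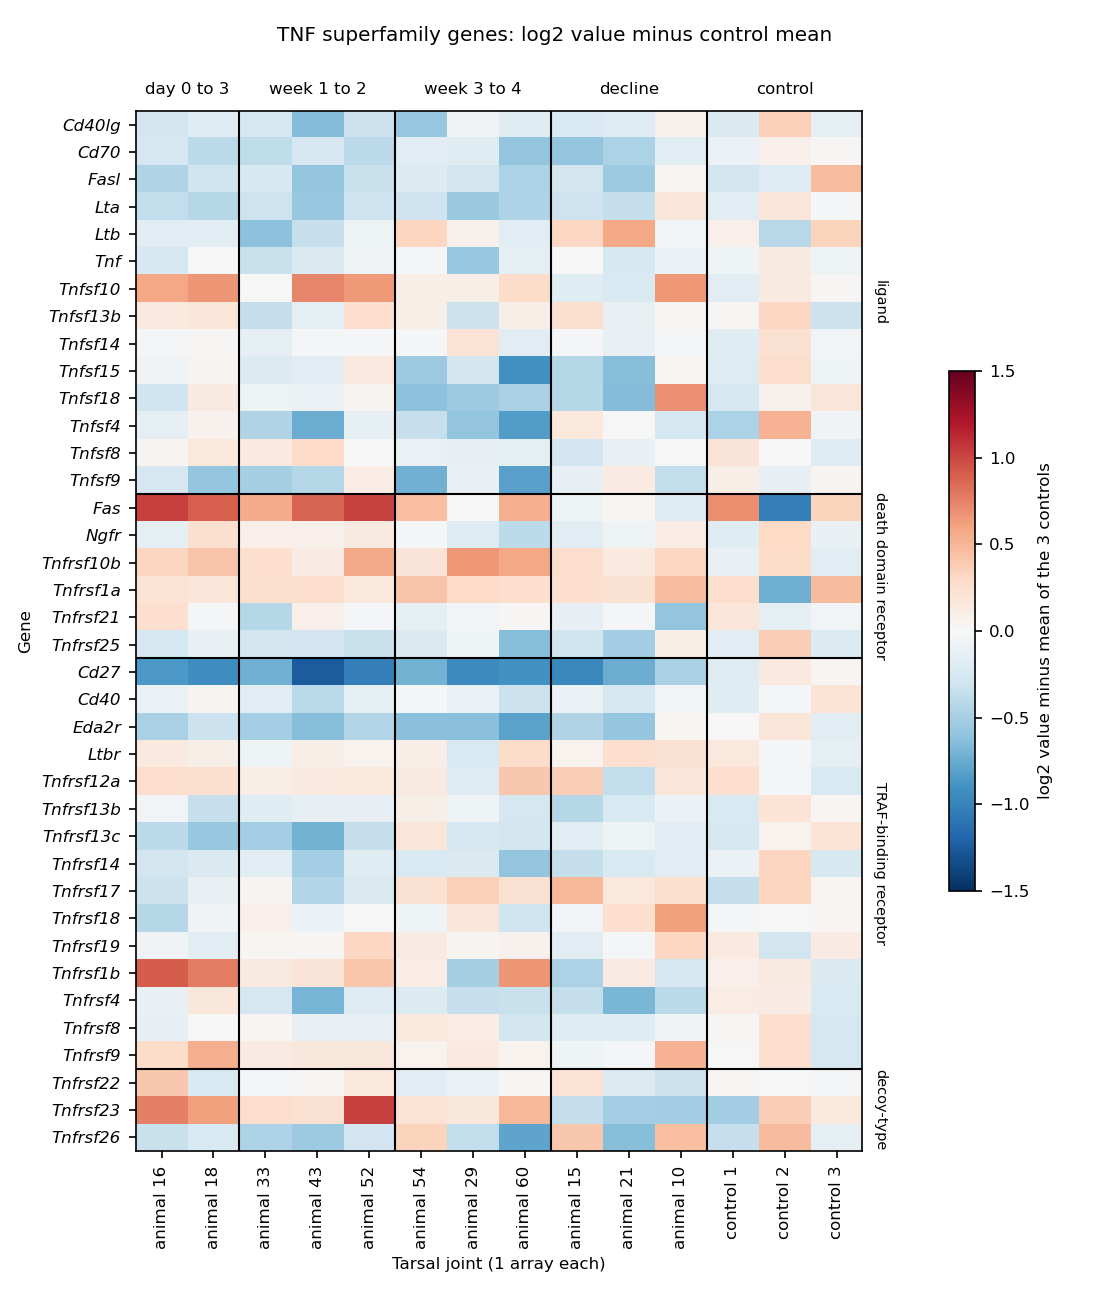
Log2 value of each of the 38 TNF superfamily genes (rows, by role) on each of the 14 arrays (columns, by phase), minus the mean of the 3 controls of that gene; red is higher and blue lower, and the colour scale ends at 1.5. Most cells are pale, Cd27 is blue on all 11 arthritis arrays, and Fas, Tnfrsf1b and Tnfrsf23 are red at day 0 to 3.

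The DNA before the gene is given for 3 of the 4 receptors whose group means spanned the widest range, so that it stands beside their values. Cd27 and Tnfrsf23 are the members that were called; Fas and Tnfrsf1b did not pass the threshold and were chosen after their values were seen, as the other members whose group means spanned at least 2-fold. The RefSeq promoter table (GRCm38.p6) holds the 250 bases before 1 start of each of these genes, and only the part that lies before the outermost annotated start is shown, 5′ to 3′ on the strand of the gene: chr6:125237137-125237277 (minus strand, 141 bases) for Cd27, chr19:34290409-34290646 (plus, 238 bases) for Fas and chr4:145246871-145247120 (minus, 250 bases) for Tnfrsf1b. The start that the table uses for Tnfrsf23 is an internal one, and its window lies wholly inside the gene and is not shown. Capitals mark matches, on either strand, to the AP-1 motif TGANTCA or the STAT motif TTCNNNGAA.
Cd27: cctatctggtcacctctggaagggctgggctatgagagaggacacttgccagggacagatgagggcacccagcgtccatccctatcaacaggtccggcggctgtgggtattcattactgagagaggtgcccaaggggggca
Fas: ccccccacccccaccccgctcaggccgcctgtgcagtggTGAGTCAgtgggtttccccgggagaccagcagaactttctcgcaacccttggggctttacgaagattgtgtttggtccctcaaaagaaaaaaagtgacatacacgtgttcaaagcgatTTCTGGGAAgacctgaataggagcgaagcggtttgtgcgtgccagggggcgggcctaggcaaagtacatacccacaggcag
Tnfrsf1b: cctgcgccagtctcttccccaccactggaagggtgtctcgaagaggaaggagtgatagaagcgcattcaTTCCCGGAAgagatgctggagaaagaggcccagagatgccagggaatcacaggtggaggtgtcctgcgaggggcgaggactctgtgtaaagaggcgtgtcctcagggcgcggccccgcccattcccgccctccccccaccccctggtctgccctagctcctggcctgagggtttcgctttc

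Fas holds 1 AP-1 match, 199 to 193 bases before the gene, and 1 STAT match, 81 to 73 bases before it, and Tnfrsf1b holds 1 STAT match, 181 to 173 bases before it. In the 250-base windows of Cd27 and Tnfrsf23 neither motif occurs, nor does the NF-kB consensus. Of 32851 such windows in the table, 6.75% hold the AP-1 motif, 7.02% the STAT motif and 7.25% the NF-kB consensus. Windows of 30 of the 38 members were listed: the AP-1 motif was in 5 of them (Fas, Tnfrsf8, Tnfrsf9, Tnfsf13b and Tnfsf14), the STAT motif in 8 (Fas, Lta, Ltb, Tnfrsf18, Tnfrsf1a, Tnfrsf1b, Tnfrsf25 and Tnfrsf9) and the NF-kB consensus in 4 (Ltb, Tnfrsf25, Tnfrsf8 and Tnfrsf9). These members have 34 windows, since some have more than 1. By window the shares were 14.7% for AP-1, 23.5% for STAT and 11.8% for NF-kB. The counts are small, and the difference from all windows was not tested. The motifs do not overlap in the printed sequences, and a match is no evidence that a factor binds there.

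Cd27, a costimulatory receptor of T cells that recruits TRAF adaptors, was lower in every phase. Its log2 value was 5.23 and 5.15 in the joints of day 0 to 3, 5.37, 4.84 and 5.06 during week 1 to 2, 5.38, 5.13 and 5.18 during week 3 to 4, and 5.12, 5.34 and 5.60 in decline, against 5.91, 6.23 and 6.12 in controls. All 11 arthritis joints lay below all 3 controls, and the highest of them was animal 10 of decline. Against control Cd27 fell by 0.90 (SE 0.19, adjusted p = 0.0155) at day 0 to 3, by 1.00 (SE 0.17, adjusted p = 0.00523) during week 1 to 2 and by 0.86 (SE 0.17, adjusted p = 0.0344) during week 3 to 4; in decline the change was -0.73 (SE 0.17) with an adjusted p of 0.156, and it did not pass. These 4 comparisons share the same controls.

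Cd27 lies among the dim genes, which were lower in the phases with a wider range of signal. Over the 14 arrays, which share these groups, its value had a correlation of -0.77 with the SD over genes. The change of Cd27 was larger than the median change of dim genes of -0.26 to -0.28 in the first 3 phases. Of 7731 dim genes, 243, 442 and 49 were called in these phases. How many dim genes fell as far as Cd27 was not counted, and the part of signal range in its change was not tested. With one median and SD set for every array, an alternative added after the data were seen, the change was -0.76 at day 0 to 3 (adjusted p = 0.0152), -0.84 during week 1 to 2 (adjusted p = 0.00561) and -0.75 during week 3 to 4 (adjusted p = 0.0261). On animal 57, the array with the narrowest range, Cd27 was at 6.23, level with the highest control. With that array in the fit Cd27 was not called in any phase (adjusted p = 0.479, 0.0858 and 0.276 in the first 3 phases). In that fit 163, 106 and 0 of all 19938 genes were called in the first 3 phases. The week 1 to 2 call held with each of the 14 arrays left out in turn. That of day 0 to 3 was lost without animal 16 (adjusted p = 0.12) or animal 18 (adjusted p = 0.13), either of which leaves a single joint there, and that of week 3 to 4 without any of 9 arrays (adjusted p 0.0513 to 0.155): animals 16, 18, 43, 52, 54, 29 and 60 and controls 2 and 3. In decline Cd27 became called without animal 10 (adjusted p = 0.0453).

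The mean levels of markers of T and B cells overlapped the controls, and these lists need not cover every cell that carries Cd27. The mean level of 6 T cell markers was 6.51 to 6.67 at day 0 to 3, 6.26 to 6.63 during week 1 to 2, 6.50 to 6.78 during week 3 to 4 and 6.35 to 6.58 in decline, against 6.39 to 6.59 in controls, and that of 6 B cell markers averaged 6.003 ± 0.007 (SD, n = 2) at day 0 to 3 and then ranged over 5.89 to 6.10, 5.95 to 6.22 and 6.01 to 6.16 through the later phases, against 5.99 to 6.33 in controls. Among the T cell markers Cd3g, a chain of the T cell receptor complex, rose by 1.44 at day 0 to 3 (SE 0.40, adjusted p = 0.0445), and it was the only marker of either list called in a phase against control. Most markers went the other way: 4 of 6 T cell markers changed below 0 at day 0 to 3 (list median -0.08) and 4 of 6 during week 1 to 2 (-0.15). Of 6 B cell markers, 5 changed below 0 in each of these phases (medians -0.15 and -0.20). At day 0 to 3, 3 of the B cell markers lay below all controls (27.8% of all genes), and during week 1 to 2 it was 2 (23.3%).

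Cd70, the ligand of Cd27, is placed beside it although it was not called. It read 4.88 and 4.72 at day 0 to 3, 4.74, 4.88 and 4.73 during week 1 to 2, 4.96, 4.94 and 4.54 during week 3 to 4, and 4.53, 4.65 and 4.97 in decline, against 5.04, 5.20 and 5.14 in controls. As with Cd27, all arthritis joints lay below all controls. The change was -0.33 (95% interval -0.71 to 0.05), -0.34 (-0.685 to -0.001), -0.31 (-0.66 to 0.03) and -0.41 (-0.75 to -0.07) through the 4 phases, with adjusted p of 0.255, 0.166, 0.241 and 0.349. Those sizes are close to the median change of dim genes in the first 3 phases. Cd27 and Cd70 were the only members whose arthritis joints lay below the controls in all 4 phases, which share the same controls. In the single phases, 27.8%, 23.3%, 15.4% and 6.2% of all genes lay below the controls. The share of all genes that did so in all 4 was not counted, so nothing is read from the pair.

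**Figure D2:**
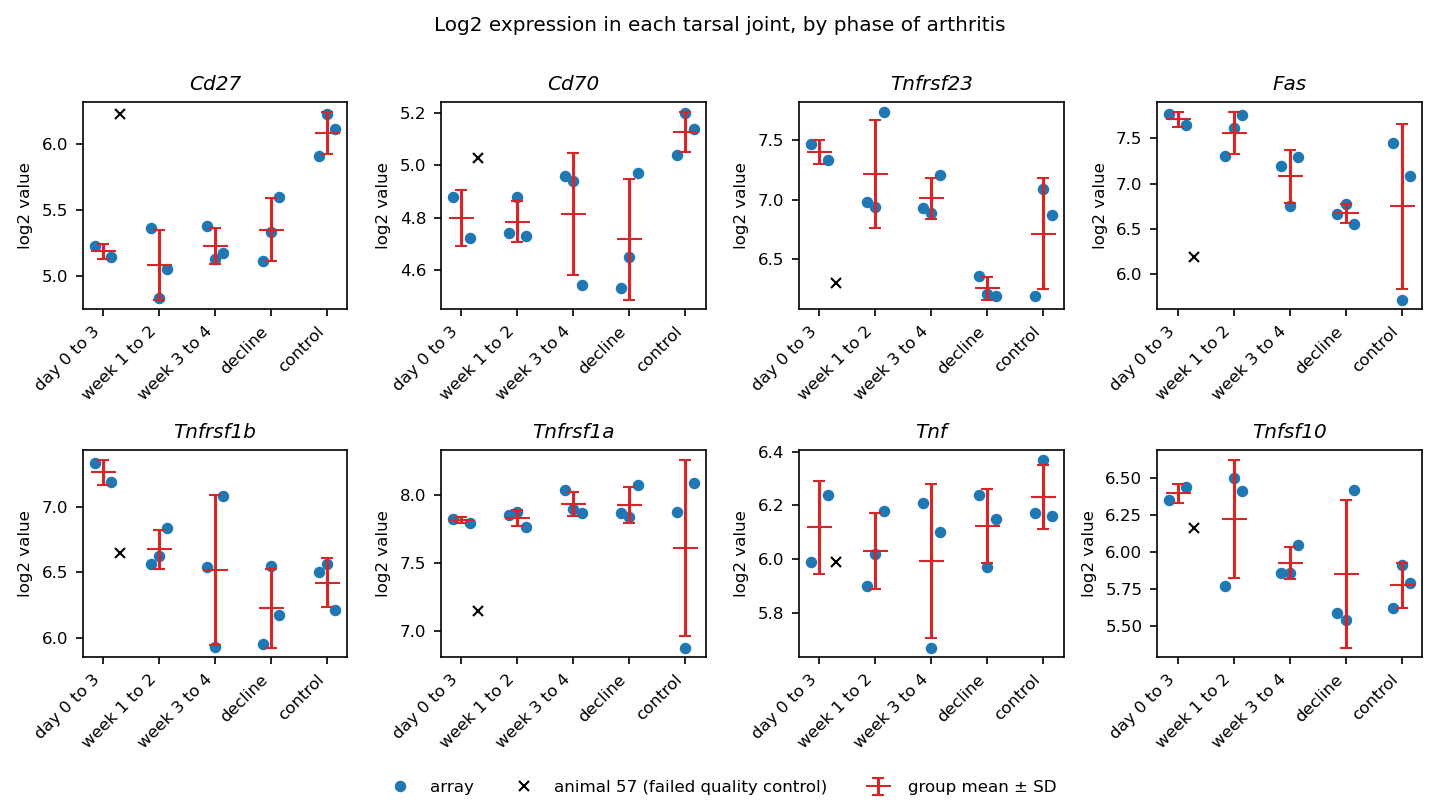
Log2 value of 8 family members in each joint (blue points), with the mean and SD of each group in red, phases in time order and controls at the right; the cross is animal 57, which failed quality control and is in no mean. Each panel has its own axis. Cd27 and Cd70 lie below the controls in every phase, Tnfrsf23, Fas and Tnfrsf1b have their lowest phase mean in decline, and Tnf overlaps the controls throughout.

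Tnfrsf23, a mouse decoy receptor for the death ligand TRAIL, was the member with the widest span of group means (1.15). It read 7.47 and 7.33 at day 0 to 3, 6.98, 6.94 and 7.74 during week 1 to 2, 6.93, 6.89 and 7.21 during week 3 to 4, and 6.36, 6.21 and 6.19 in decline, against 6.19, 7.09 and 6.87 in controls. All 3 decline joints lay below every joint of the first 3 phases, while the controls were spread over the range of both. In decline it fell by 1.055 relative to week 0 to 2 (2.08-fold lower, SE 0.22, adjusted p = 0.0186). Against control the change was 0.685 (SE 0.27, adjusted p = 0.131) at day 0 to 3 and -0.46 (SE 0.24, adjusted p = 0.468) in decline, neither of which passed, and without control 1, the lowest control, the changes were 0.42 and -0.725.

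The Tnfrsf23 call was lost without animal 16 (adjusted p = 0.0742), animal 18 (0.0628) or animal 10 (0.0541), and with animal 57 added (change -0.87, adjusted p = 0.201). The array names carry a letter code that no source explains: all joints of week 0 to 2 have one code and all decline joints the other, so only week 3 to 4, which holds both, ties them together. With the code as a block the change was -1.17 (SE 0.44, adjusted p = 0.964), and 1 of all 19938 genes was called. No code holds both groups of this comparison, so that no value within a code could be had. Other cell types moved along with it: 6 of 6 epidermal markers were called higher in decline than in week 0 to 2, with the levels given above, and 1 of 6 macrophage markers (Msr1) was called lower, the mean level of that list being 6.83 to 7.89 in decline and 7.65 to 8.53 in week 0 to 2. Of 6 muscle markers 3 (Ckm, Myl2 and Pygm) were called higher, with a list median of 1.06. The endothelial Emcn, the fibroblast Lum and the neutrophil Csf3r were called lower, each as 1 of its list. Csf3r went against its own list, in which 6 of 7 neutrophil and precursor markers had a change above 0 (list median 0.42). In the endothelial list 6 of 6 changes were below 0, and in the fibroblast list 5 of 6. Of 4 osteoblast markers 1 was called higher, and so was 1 of 5 adipocyte markers. Over all 19938 genes, 533 were called higher and 414 lower (2.08%) in this comparison, and nothing is read from a single called marker of a list. The part of these cell types in the Tnfrsf23 result was not tested.

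Tnfrsf23 stands on chromosome 7 next to Tnfrsf22, the other mouse decoy receptor for TRAIL, and Tnfrsf26, whose ligand is not known. Neither neighbour was called. Tnfrsf22 ranged from 6.18 to 6.91 over the 14 joints with a change of -0.18 (SE 0.16, adjusted p = 0.589) in decline relative to week 0 to 2, and Tnfrsf26 from 6.28 to 7.55 with a change of 0.43 (SE 0.29, adjusted p = 0.444). The sequences of Tnfrsf22 and Tnfrsf23 are related, and how far their probes can bind the other transcript was not analysed here. The ligand they bind, TRAIL (Tnfsf10), read 6.35 and 6.44 at day 0 to 3, 5.77, 6.50 and 6.41 during week 1 to 2, 5.86, 5.86 and 6.05 during week 3 to 4, and 5.59, 5.54 and 6.42 in decline, against 5.62, 5.91 and 5.79 in controls. It was the ligand with the largest change at day 0 to 3 (0.62, SE 0.27, adjusted p = 0.159), where both joints lay above all controls, and the change did not pass. Tnfrsf10b, the TRAIL receptor with a death domain, was higher than all controls on both joints of day 0 to 3 with a change of 0.37 (SE 0.20, adjusted p = 0.244), and reached 0.47 (SE 0.17, adjusted p = 0.142) during week 3 to 4.

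Fas, the death receptor of Fas ligand, read 7.77 and 7.65 at day 0 to 3, 7.31, 7.62 and 7.76 during week 1 to 2, 7.20, 6.75 and 7.30 during week 3 to 4, and 6.67, 6.78 and 6.56 in decline, against 7.45, 5.72 and 7.08 in controls. Decline lay below all 5 joints of week 0 to 2, and control 2 stood far below the other controls. The change was 0.96 (SE 0.37, adjusted p = 0.123) at day 0 to 3 and -0.97 (SE 0.30, adjusted p = 0.0846) in decline relative to week 0 to 2, and neither passed. The comparison with control rests on control 2. Without it the change at day 0 to 3 was 0.44 (adjusted p = 0.269), that of week 1 to 2 was 0.29 in place of 0.81, and that of week 3 to 4 was -0.18 in place of 0.33. Without control 1, Fas was called at day 0 to 3 (adjusted p = 0.0295) and in decline relative to week 0 to 2 (0.047), and decline relative to week 0 to 2 was also called without control 2 (0.00979); in that comparison the controls enter only the estimate of the spread, and the change stays as it was. Fas had a correlation of 0.75 with the SD over genes of the 14 arrays. Fas ligand (Fasl), the killer ligand of cytotoxic T cells, ranged from 4.62 to 5.67 with changes of -0.38 to -0.26 against control, none called.

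Neither TNF nor its receptors were called in any comparison. Tnf read 5.99 and 6.24 at day 0 to 3, 5.90, 6.02 and 6.18 during week 1 to 2, 6.21, 5.67 and 6.10 during week 3 to 4, and 6.24, 5.97 and 6.15 in decline, against 6.17, 6.37 and 6.16 in controls. Every phase overlapped the controls. The change was -0.11 at day 0 to 3 (95% interval -0.51 to 0.29), -0.20 during week 1 to 2 (-0.56 to 0.16), -0.24 during week 3 to 4 (-0.60 to 0.12) and -0.11 in decline (-0.47 to 0.25), with adjusted p of 0.717, 0.426, 0.369 and 0.815. The highest upper bound was that of day 0 to 3.

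Tnfrsf1a encodes TNFR1, the receptor of soluble TNF that most cells carry. It read 7.83 and 7.80 at day 0 to 3, 7.86, 7.88 and 7.77 during week 1 to 2, 8.04, 7.90 and 7.87 during week 3 to 4, and 7.87, 7.84 and 8.08 in decline, against 7.88, 6.88 and 8.09 in controls. The 11 arthritis joints and controls 1 and 3 lay within a narrow band, and control 2 stood apart below it. The changes of 0.20 to 0.33 were not called (adjusted p 0.394 to 0.644), and their direction rests on control 2: without it they were -0.165, -0.15, -0.04 and -0.05 through the 4 phases.

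Tnfrsf1b encodes TNFR2, which is carried mainly by leucocytes and endothelium and answers best to TNF on a cell surface. It read 7.33 and 7.19 at day 0 to 3, 6.56, 6.62 and 6.84 during week 1 to 2, 6.54, 5.93 and 7.08 during week 3 to 4, and 5.95, 6.55 and 6.17 in decline, against 6.50, 6.56 and 6.21 in controls. Both joints of day 0 to 3 lay above all joints of the other groups, and week 1 to 2 began where the controls ended. The change of 0.84 at day 0 to 3 (1.79-fold, SE 0.27, adjusted p = 0.0754) did not pass, nor did that of -0.74 in decline relative to week 0 to 2 (SE 0.22, adjusted p = 0.0756). Both were called when animal 29 (adjusted p = 0.0398 and 0.0355) or animal 60 (0.042 and 0.0389) of week 3 to 4 was left out, which leaves the changes as they were and lowers the estimate of the spread. Endothelial markers moved with it: 4 of 6 were called higher at day 0 to 3 (4.46% of all genes). Their mean level there was 8.37 to 8.42 against 7.17 to 7.82 in controls, and in decline it averaged 7.65 ± 0.26 (SD, n = 3). In decline 6 of 6 changes relative to week 0 to 2 were below 0 (median -0.685), and 1 was called lower (2.08% of all genes). Of 6 macrophage markers, 5 were higher at day 0 to 3, with the levels given above, and 1 was lower, with a change of -0.68. In decline relative to week 0 to 2, 5 of the 6 macrophage changes were below 0. The part of either was not tested.

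The lymphotoxins share receptors with TNF and also act through the lymphotoxin beta receptor, which guides lymphoid tissue. Lta was below all controls in the first 3 phases, with changes of -0.40 (adjusted p = 0.191), -0.40 (0.132) and -0.44 (0.148), none called. Ltb, the membrane partner of Lta, read 7.26, 7.53 and 6.91 in decline, above all 5 joints of week 0 to 2 (6.34 to 6.88), with a change of 0.54 (SE 0.20, adjusted p = 0.15). Ltbr stayed between 6.40 and 6.90 in all 14 joints.

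Of the B cell axis, Tnfsf13b encodes BAFF, the survival factor of B cells, and Tnfrsf13b, Tnfrsf13c and Tnfrsf17 encode its receptors TACI, BAFF receptor and, on plasma cells, BCMA. Tnfsf13b ranged from 5.46 to 6.13, and each of its phases overlapped the controls. Tnfrsf13c read 7.31 and 7.14 at day 0 to 3 and 7.19, 6.99 and 7.35 during week 1 to 2, against 7.44, 7.76 and 7.91 in controls, so that 5 of 5 joints lay below, with changes of -0.48 (SE 0.19, adjusted p = 0.131) and -0.53 (SE 0.17, adjusted p = 0.0622). The week 1 to 2 change was called without control 1 (adjusted p = 0.028) or animal 10 (0.0496), and after a second quantile normalisation (0.0442). In decline Tnfrsf13c (7.53 to 7.63) and Tnfrsf17 (6.33 to 6.67) both lay above the joints of week 0 to 2 (6.99 to 7.35 and 5.74 to 6.22). The changes were 0.37 (adjusted p = 0.202) and 0.51 (adjusted p = 0.107), and neither passed; the mean level of 5 plasma cell markers was 7.23 to 7.45 in decline and 6.93 to 7.21 in week 0 to 2. Tnfrsf13b ranged from 6.14 to 6.77, and its phases overlapped the controls.

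The pairs through which antigen-presenting cells costimulate T cells were not called either. For CD40, through which T cells license B cells, macrophages and dendritic cells, Cd40 stayed between 6.50 and 7.12, and its ligand Cd40lg, below all controls during week 1 to 2, changed there by -0.41 (SE 0.19, adjusted p = 0.165). For the OX40 pair, Tnfrsf4 read 5.61, 5.29 and 5.57 in decline, below all controls (6.08, 6.09 and 5.74), with a change of -0.48 (SE 0.17, adjusted p = 0.318), and its ligand Tnfsf4 overlapped the controls in every phase. For the CD137 pair, Tnfrsf9 read 5.96 and 6.23 at day 0 to 3, above controls of 5.69, 5.94 and 5.44, with a change of 0.41 (SE 0.20, adjusted p = 0.208), and its ligand Tnfsf9 read 5.15 and 4.82, below controls of 5.48, 5.27 and 5.44, with a change of -0.41 (SE 0.24, adjusted p = 0.299). For the GITR pair, Tnfrsf18 ranged from 6.34 to 7.38 and Tnfsf18 from 3.78 to 5.12, the highest value of each being that of animal 10. Tnfrsf18 lay below all controls at day 0 to 3 with a change of -0.24 (SE 0.20, adjusted p = 0.463), and Tnfsf18 during week 3 to 4 with a change of -0.55 (SE 0.27, adjusted p = 0.234). The CD30 pair, Tnfrsf8 and Tnfsf8, overlapped the controls in all phases, as did LIGHT (Tnfsf14), whose group means differed by 0.065, and its receptor HVEM (Tnfrsf14).

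Tnfsf15, which encodes TL1A, was below the controls during week 3 to 4 (6.09, 6.35 and 5.72 against 6.44, 6.89 and 6.56) with a change of -0.58 (SE 0.21, adjusted p = 0.135), and its receptor DR3 (Tnfrsf25) was below them during week 1 to 2 (change -0.30, SE 0.20, adjusted p = 0.339). Eda2r, the receptor of an ectodysplasin, came close to the threshold. It read 5.22 and 5.39 at day 0 to 3, 5.20, 5.07 and 5.27 during week 1 to 2, 5.08, 5.08 and 4.91 during week 3 to 4, and 5.26, 5.13 and 5.74 in decline, against 5.70, 5.89 and 5.54 in controls. The joints of the first 3 phases lay below the controls, and animal 10 of decline lay among them. The change was -0.53 (SE 0.17, adjusted p = 0.0615) during week 1 to 2 and -0.68 (SE 0.17, adjusted p = 0.058) during week 3 to 4, and without animal 10 it was called in both (adjusted p = 0.0204 and 0.0168). Its correlation with the SD over genes of the 14 arrays was -0.89. Of the remaining members, the neurotrophin receptor Ngfr, the death domain receptor Tnfrsf21, the TWEAK receptor Tnfrsf12a and Tnfrsf19 (TROY) overlapped the controls in all phases, with changes of -0.24 to 0.25.

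Counted by separation alone, 6 of 38 members at day 0 to 3 had both joints above all controls (Tnfsf10, Fas, Tnfrsf10b, Tnfrsf1b, Tnfrsf9 and Tnfrsf23), where 18.4% of all genes did, and 8 had both below, where 27.8% did. During week 1 to 2 it was 1 above (13.6% of all genes) and 7 below (23.3%), during week 3 to 4 it was 0 above (10.5%) and 6 below (15.4%), and in decline 0 above (3.8%) and 3 below (6.2%). In decline relative to week 0 to 2, 3 members were above (9.07%) and 3 below (7.34%). By role, the death domain receptors had a median change of 0.16 at day 0 to 3, the decoy-type receptors 0.09, the ligands -0.10 and the TRAF-binding receptors -0.11, beside -0.12 for all genes. The roles differ in brightness: most ligands were dim, while most death domain receptors and all decoy-type receptors were brighter. Dim genes had a median change of -0.26 in that phase and brighter genes 0.04. The part of brightness in the role medians was not tested. The highest group mean was that of day 0 to 3 in 10 members (26.3%; 18.2% of all genes) and that of controls in 17 (44.7%; 42.7%).

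Genes that act after the receptors were counted in the same way, beside 4.46% of all genes called higher at day 0 to 3, 5.41% called higher during week 1 to 2 and 2.08% called lower in decline than in week 0 to 2. Of 17 genes that textbooks give as induced by TNF, 7 were called higher at day 0 to 3 (15 above 0, list median 1.00). During week 1 to 2, 5 were called higher (14 above 0, median 0.75). It was 0 during week 3 to 4 (9 above 0, median 0.055) and 0 in decline (8 above 0, median -0.01). In these last 2 phases 4 and 1 genes of the list had an unadjusted p under 0.05 (limma). The largest were Tnfaip6, a hyaluronan-binding protein of inflamed joints, which rose by 2.72 (SE 0.635, adjusted p = 0.0221) at day 0 to 3, the neutrophil chemokine Cxcl2 (2.52, SE 0.61, adjusted p = 0.0262), the cytokine Il1b (2.30, SE 0.47, adjusted p = 0.012) and, during week 1 to 2, Il6 (2.53, SE 0.68, adjusted p = 0.0342), whose groups overlapped. In decline 14 of the 17 changes relative to week 0 to 2 were below 0 (median -1.01), and 6 genes were called lower. Among these 6 were Il6 (-2.32, SE 0.61, adjusted p = 0.047), Il1b (-1.87, SE 0.38, adjusted p = 0.0164) and the prostaglandin synthase Ptgs2 (-1.58, SE 0.26, adjusted p = 0.00885). Many of these genes answer to IL-1 and to bacterial products as well as to TNF, and Icam1, Vcam1 and Sele of the list are genes of endothelium. At day 0 to 3, 4 of 6 endothelial, 3 of 6 macrophage and 3 of 5 osteoclast markers were called higher too, the last with a mean level of 8.67 to 9.07 against 6.53 to 7.32 in controls. The part of these cell types was not tested.

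The other lists had few called genes, and nothing is read from their counts. Of 22 adaptor and ubiquitin genes, 15 had a change above 0 at day 0 to 3, and 2 were called higher (4.46% of all genes). These 2 were the caspase Casp8, which death domain receptors recruit (1.20, SE 0.28, adjusted p = 0.022), and Birc3, a ubiquitin ligase of the TNFR1 complex (1.20, SE 0.285, adjusted p = 0.0236). During week 1 to 2, 3 were called higher (5.41% of all genes). They were Birc3 (0.985, SE 0.255, adjusted p = 0.0301), its relative Birc2 (1.10, SE 0.305, adjusted p = 0.0382) and Cflar, which restrains caspase-8 (1.415, SE 0.39, adjusted p = 0.0373). None of the 22 was called during week 3 to 4 (5 at an unadjusted p under 0.05, limma), in decline (3) or between decline and week 0 to 2 (5). The median of the list was 0.32 at day 0 to 3, 0.21 during week 1 to 2, 0.29 during week 3 to 4 and -0.02 in decline.

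Of 16 NF-kB kinase, subunit and inhibitor genes, 11 and 8 had a change above 0 in the first 2 phases. In both phases 2 were called higher (4.46% and 5.41% of all genes). They were Rel, an activating subunit of lymphocytes and macrophages (0.90, SE 0.235, adjusted p = 0.0343 and 0.72, SE 0.21, adjusted p = 0.0468), and Nfkbiz, a nuclear member of the inhibitor family (0.75, SE 0.20, adjusted p = 0.0363 and 0.80, SE 0.18, adjusted p = 0.0166). Rela, the most widely used subunit, fell by 0.51 during week 1 to 2 (SE 0.14, adjusted p = 0.0406). Rel and Nfkbiz were called lower in decline than in week 0 to 2 (2.08% of all genes), with changes of -0.94 (SE 0.19, adjusted p = 0.0164) and -0.81 (SE 0.16, adjusted p = 0.0156). The list median lay between -0.04 and 0.07 in the 4 phases. Of 6 genes that cut or mature ligands of the family, Adam17, the protease that frees TNF from the cell surface, was called alone, with a rise of 0.95 (SE 0.24, adjusted p = 0.0323) at day 0 to 3 and 1.04 (SE 0.22, adjusted p = 0.0124) during week 1 to 2; all joints of both phases lay above all controls.

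**Figure D3:**
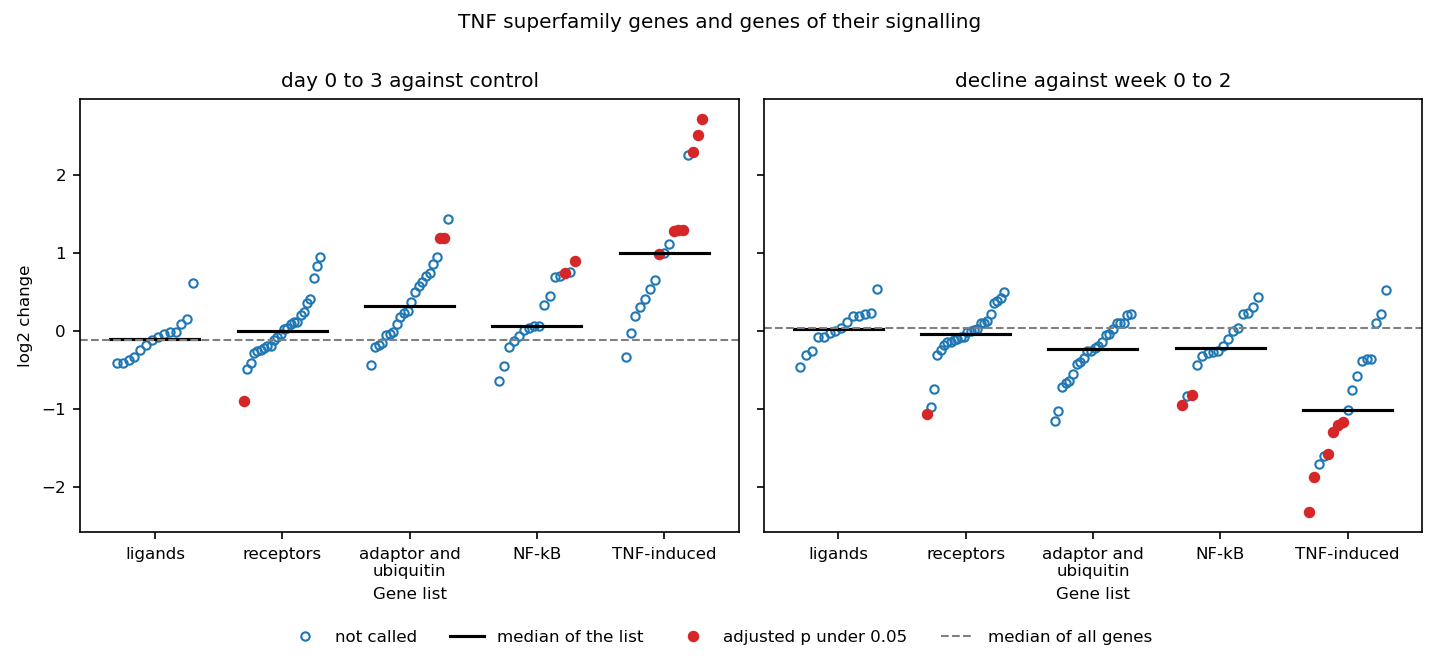
Log2 change of single genes (points, sorted within each list) for day 0 to 3 against control (left) and for decline against week 0 to 2 (right); filled red points passed an adjusted p of 0.05, black bars are list medians and the dashed line is the median of all genes. Ligands and receptors gather near the line, whereas the TNF-induced list has a median of 1.00 on the left and -1.01 on the right.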

How the data were processed

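RNA of 15 tarsal joints was measured by the authors on Affymetrix Mouse Gene 1.0 ST arrays after amplification. RMA (affy under R 2.15, per the submitters' processing notes) was used by the authors for background correction, quantile normalisation and probe summary, and the deposited values are log2 intensities from 1.56 to 14.26. Whether animal 57 took part in that normalisation, and which affy release was used, were not given in the sources used here. Arrays have no read depth, and 2 or 3 arrays per group limit the precision.

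Of 35556 probe sets, 21789 name 1 gene in the platform annotation (21698 match RefSeq), 1621 name several and 12146 none, and only the first kind was used. For the 999 genes with several, the brightest by mean was kept, which left 19938 genes. In limma 3.58.1 (R 4.3.3), lmFit and eBayes were run on 5 group means over the 14 arrays that passed quality control, without a covariate, and p-values were adjusted by Benjamini-Hochberg over all genes. Week 0 to 2 is the mean of the first 2 group means. The calculation was tested on simulated data. The alternatives were the use of all 15 arrays, leaving out single arrays, a fit or an ANOVA of only the groups compared, moderation with trend and robust, array weights, median centring, another quantile normalisation, a minimum of 4 or 6 on a group's mean, all probe sets, the mean of a gene's probe sets, a fold of at least 2 and the letter code as a block. Alternatives added after the data were seen were a common median and SD for the arrays and a fit without control 2 and animal 10.

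Values on every array are given for members called in at least 1 of the 5 comparisons and for Tnf, Tnfrsf1a and Tnfrsf1b, and otherwise the 2 members per role with the largest change at day 0 to 3, with up to 4 called genes per pathway list; any other member is named after its values were seen. The members, the lists (139 of 148 listed genes were found) and the tests were chosen with earlier results of these data known. Promoter windows came from the RefSeq table (GRCm38.p6), cut to the 250 bases before a start, and bases inside the annotated span of a gene are not printed. Python 3.11.15 and matplotlib 3.10.9 were used for the figures.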

Additional observations from a re-analysis of the deposited data

Results flagged for a closer look

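Tnfrsf23 differed between phases: its change of -1.055 in decline minus week 0 to 2 (SE 0.22, adjusted p = 0.0186, limma) passed the test of that difference, and it was the only member to do so. All 3 decline joints lay below all 5 joints of week 0 to 2.

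The array of animal 57, which enters no comparison above, placed 22 of 38 members above all 3 controls (57.9%; 36.3% of all genes) and 3 below (7.9%; 27.4%). Its SD over genes was 1.08, the lowest of the 15 arrays. Fas (6.19) and Tnfrsf23 (6.30) were lower there than on both other arrays of day 0 to 3, and Cd27 (6.23) was higher than on both.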

How the results depend on the processing

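Over the 190 pairs of a member and a comparison, the sign of the change turned under at least 1 alternative in 78, of which 12 had a change of at least 0.2 (Cd40lg and Tnfrsf1a in 4 comparisons each, and Fas, Tnfrsf17, Tnfrsf26 and Tnfsf9 in 1); Cd27 against control in each phase, and Tnfrsf23 in all 5 comparisons, kept their sign under every alternative run. Members called were 1 at day 0 to 3, 1 during week 1 to 2, 1 during week 3 to 4, 0 in decline against control and 1 in decline against week 0 to 2. With all 15 arrays, and with an ANOVA of the groups compared, the 4 counts of 1 became 0. Over all 19938 genes, the calls in these 4 comparisons were 163, 106, 0 and 119 with all 15 arrays. With the ANOVA they were 0, 10, 0 and 82. A fit of only the groups compared gave 0 at day 0 to 3 (454 of all genes) and 0 during week 3 to 4 (2 of all genes). In decline against week 0 to 2 it gave 3 (Fas, Tnfrsf1b and Tnfrsf23), with 958 of all genes. Array weights gave 2, 2, 0 and 6 for the comparisons that had 1, where 2935, 3014, 331 and 2746 of all genes were called. The second quantile normalisation, and one median and SD for every array (added after the data were seen), each gave 2 during week 1 to 2 (1707 and 1658 of all genes). All probe sets gave 0 during week 3 to 4 (186 of 35556 probe sets called). A fold of at least 2 gave 0 in the first 3 phases (906, 840 and 190 of all genes). The letter code as a block gave 0 in decline against week 0 to 2, where 1 of all genes was called. With that block the comparisons with control could not be fitted. Without control 2 and animal 10 (added after the data were seen) the counts were 2 at day 0 to 3 (2101 of all genes), 2 during week 3 to 4 (688) and 4 in decline against week 0 to 2 (868). When single arrays were left out, the calls over all genes ranged from 417 to 3389 during week 1 to 2. They ranged from 0 to 1427 during week 3 to 4 and from 0 to 191 in decline against control. With each array left out in turn the counts ranged from 0 to 2 at day 0 to 3, from 1 to 3 during week 1 to 2, from 0 to 2 during week 3 to 4, from 0 to 1 in decline against control and from 0 to 2 in decline against week 0 to 2. The Cd27 call held in 22 of 28 alternatives at day 0 to 3, 25 of 28 during week 1 to 2 and 13 of 28 during week 3 to 4, and the Tnfrsf23 call in 23 of 29. Adjusted p ranged from 0.00239 to 0.127 for Cd27 during week 1 to 2 and from 0.00508 to 0.964 for Tnfrsf23. The cause was not tested where a count moved. No paired analysis was possible because each joint is from another animal and the replicate numbers, given in accession order, pair no joints across groups. As a set, dim genes were lower in the phases whose arrays mostly had a wider range. The part of the range was not tested, so that changes of dim genes are the least certain.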
